A study of Homo sapiens with 15 samples.

Results

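Ribosome footprints of MCF-10A cells treated with eIF3e siRNA were compared, gene by gene, with footprints of cells treated with control siRNA. MCF-10A is a non-tumorigenic line of human mammary epithelium, and both groups were grown in medium with EGF, insulin, hydrocortisone and serum. The comparison uses 6 of the 15 libraries of the series, 3 footprint libraries per siRNA, each after 72 h with 20 nM siRNA. The total RNA of cells given the same siRNAs was sequenced in 3 libraries per group, and its values stand beside those of the footprints. Of the 20248 genes in the footprint table, 13152 had a count in these libraries and 9228 passed the filter on low counts (a minimum count of 10 in edgeR). These 9228 genes are the genes described, and the other 11020 were not tested. The labels give neither the siRNA sequences nor whether each replicate was a culture of its own. The p-values therefore cover the spread among these libraries, which may be technical.

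A footprint is the stretch of mRNA that a ribosome covers and protects from RNase, here recovered at 26 to 34 nt. The footprint count of a gene follows the amount of its mRNA, how often ribosomes start on it and how long they stay on it. eIF3 is the largest initiation factor; it binds the small ribosomal subunit and helps to bring it to mRNA, and eIF3e is one of its subunits. Counts are shares of a library, so a change in translation of all genes together is not measured, and more frequent initiation and slower elongation cannot be told apart for a gene. Levels are given as CPM, counts scaled to a common library total with TMM factors. They are not corrected for gene length. Where genes are ranked or classed by level, the order is therefore one of footprint counts, not of footprints per length of mRNA. A change is the log2 ratio of eIF3e siRNA to control siRNA ± SE (n = 3 per group), and a gene is said to rise or fall where edgeR's quasi-likelihood test gave a Benjamini-Hochberg adjusted p under 0.05.

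The control libraries held 1889543 to 2577895 footprint counts and the eIF3e siRNA libraries 2778843 to 3447360, so depth differed with the siRNA, and its part in the results was not tested. Where a library has no count for a gene, its level may still reach 0.870 to 1.59 CPM by counting error alone (3 counts). EIF3E, the target, on chromosome 8, stood at 421, 392 and 385 CPM with control siRNA and at 57.1, 40.4 and 63.9 CPM after its own siRNA, so that the groups lay far apart. Of 10 epithelial markers of the line, all tested, ITGA6, CDH3 and LAMB3 rose, KRT5, KRT14, KRT17 and KRT6A fell, and EPCAM, CDH1 and CD44 were not called. The rises of CDH3 and LAMB3 were both lost without control library 2 or eIF3e siRNA library 1 or 3, and that of CDH3 also without eIF3e siRNA library 2. Together the 10 took 2.74 to 2.88% of control footprints and 2.64 to 2.68% after eIF3e siRNA. Of 9 fibroblast markers, LUM, PDGFRA, PDGFRB, COL1A2, COL3A1 and THY1 were below the filter. Of the 3 tested DCN, decorin, rose (1.05 ± 0.17) and COL1A1 and FAP were not called, and the list took 0.0169 to 0.0184% of control footprints against 0.0198 to 0.0253% with eIF3e siRNA. Of 11 endothelial and blood markers 2 passed the filter; PECAM1, CDH5, VWF, KDR, PTPRC, CD3E, HBA1 and HBB were among those below it. The 2 that passed, CD14 and CD68, both rose, and the list moved from 0.0300 to 0.0321% up to 0.0476 to 0.0587% of footprints. The part of these markers in the results was not tested.

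Footprints of 926 genes rose and those of 781 fell, which is 10.0% and 8.46% of the genes tested (18.5% in all). Of the risers 391 changed at least 2-fold and 45 at least 4-fold, and of the fallers 277 and 27. The median change of all tested genes was −0.01, with the 10th percentile at −0.80 and the 90th at 0.87. Calls depended on the level of a gene: with the genes sorted by level into 4 classes of equal size, 2.95% were called in the class of lowest level, 7.76% and 20.3% in the next, and 43.0% in the class of highest level. A gene of low level that was not called is therefore not shown to be unchanged. In simulated data built from these libraries, with 200 changed genes among 8813, 16.4% of genes changed 1.5-fold were called. Of genes changed 2-fold 46.3% were called there, and of genes changed 4-fold 74.2%. Fewer genes were changed there than were called here, so these shares are not the sensitivity of this comparison. The 3 eIF3e siRNA libraries lay on one side of all 3 control libraries for 33.6% of the genes tested, 17.1% higher and 16.5% lower.

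**Figure D1:**
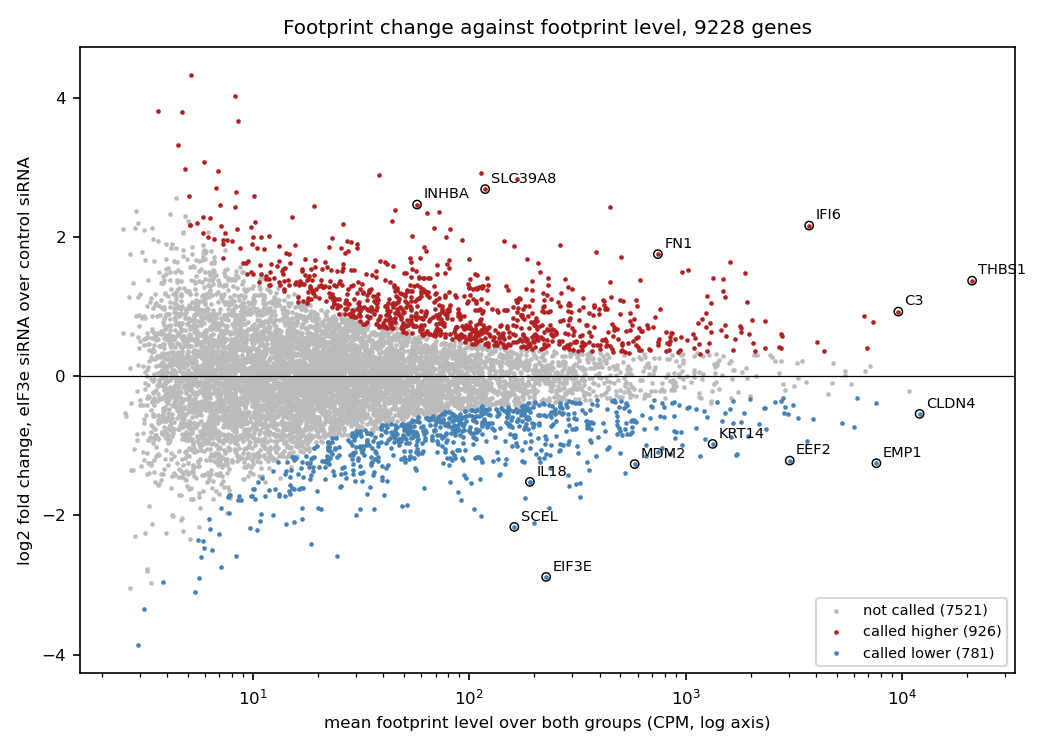
Footprint log2 fold change, eIF3e siRNA over control siRNA, against the mean footprint level in CPM (log axis) for the 9228 genes tested; red points were called higher (926), blue lower (781) and grey points not called (7521). The share of genes called grows with level, from 2.95% to 43.0%, and THBS1, C3 and IFI6 combine a high level with a rise.

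The genes called higher together took 18.9 to 19.5% of control footprints and 32.1 to 32.6% of those with eIF3e siRNA. Those called lower took 27.6 to 29.3% and then 16.9 to 17.3%. These shares describe genes chosen by the same change and are no further evidence for it. THBS1 encodes thrombospondin 1, a secreted glycoprotein of the matrix (chromosome 15, 39581079 to 39599466, GRCh38.p14). Its footprints were at 11556, 10880 and 12842 CPM in control and at 30599, 30917 and 29782 CPM after eIF3e siRNA. It rose by 1.37 ± 0.11 (edgeR adjusted p = 9.3e-11), with each group narrow and the groups far apart, and its total RNA rose by the same 1.37 ± 0.10. On the other side stood EMP1, a tetraspan membrane protein of epithelia, at 13165, 10814 and 8197 CPM in control and 4528, 4477 and 4522 CPM after eIF3e siRNA. EMP1 fell by 1.25 ± 0.13 (edgeR adjusted p = 1.7e-08), and here the control libraries differed among themselves while the eIF3e siRNA libraries did not.

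The same unevenness of the control libraries was seen in several epithelial genes. CLDN4, a claudin of tight junctions, was at 17901, 13946 and 11076 CPM in control and at 10025, 9699 and 9760 CPM after eIF3e siRNA (−0.54 ± 0.13, edgeR adjusted p = 0.0024). GPRC5A, a receptor of epithelial surfaces, was at 8237, 6545 and 4732 CPM in control and at 4067, 3982 and 4140 CPM after eIF3e siRNA (−0.68 ± 0.14, edgeR adjusted p = 0.00040). In both genes control library 1 was highest and control library 3 closest to the eIF3e siRNA libraries, without overlap. Without control library 1, 2 or 3 in turn, and without each eIF3e siRNA library in turn, the calls of THBS1, EMP1, CLDN4 and GPRC5A were kept.

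**Figure D2:**
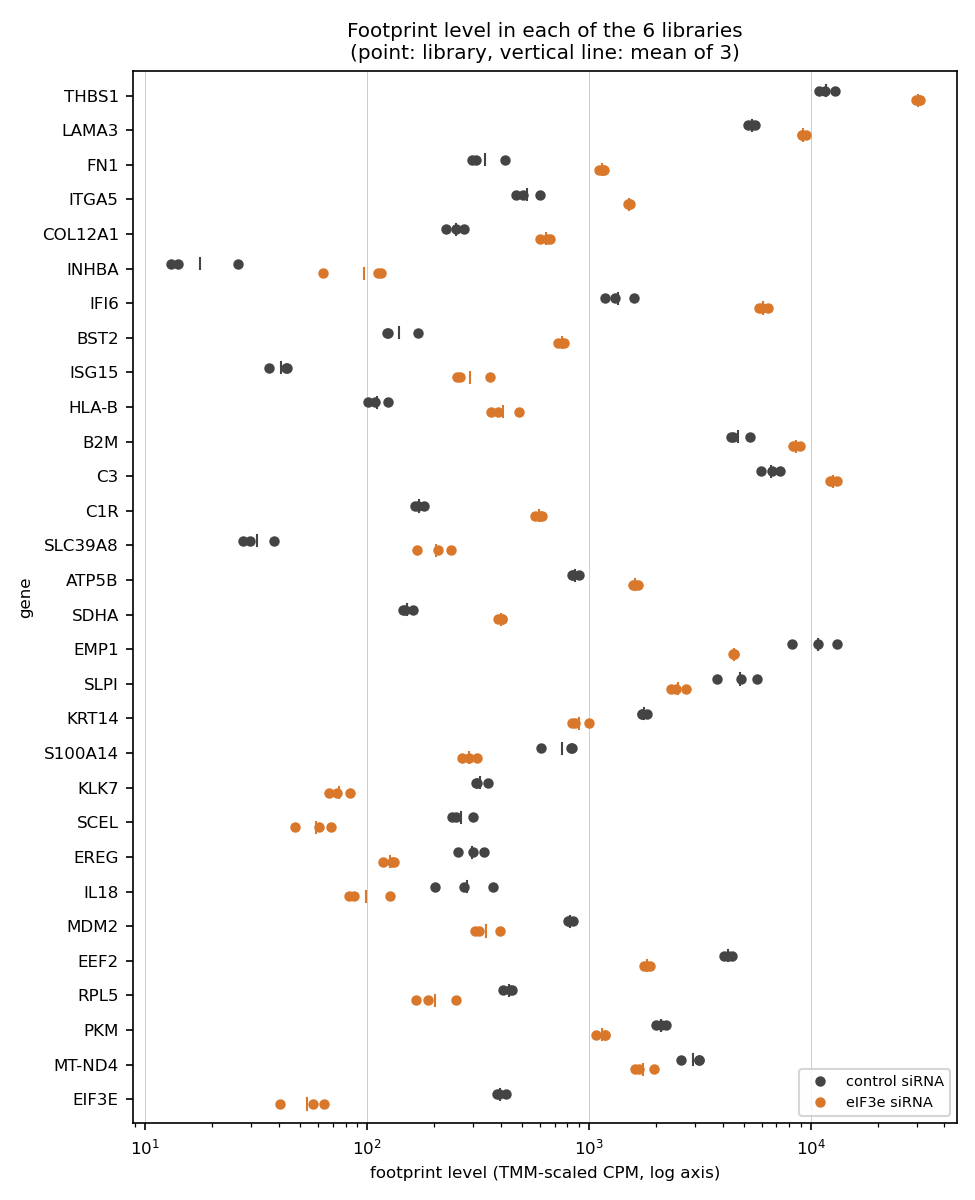
Footprint level (TMM-scaled CPM, log axis) of 30 genes in each of the 3 control siRNA libraries (grey) and 3 eIF3e siRNA libraries (orange); vertical lines are means. In each of these genes the groups do not overlap, as in 33.6% of all genes tested; THBS1 moved from 10880 to 12842 CPM up to 29782 to 30917 CPM.

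The matrix carries collagens, laminins and large glycoproteins that cells secrete and hold through integrins, and in mammary epithelium the laminins and collagen IV form the basement membrane. Of 13 collagens tested 9 rose and 0 fell, with a median change of 0.78 beside −0.01 for all genes. COL4A2, a chain of basement membrane collagen, was at 185, 156 and 143 CPM in control and at 384, 357 and 373 CPM after eIF3e siRNA (1.20 ± 0.13, edgeR adjusted p = 5.4e-08). COL12A1, a fibril-associated collagen, was at 252, 226 and 273 CPM and rose to 604, 670 and 648 CPM (1.36 ± 0.12, edgeR adjusted p = 1.4e-09). COL8A1, a short-chain collagen, had the largest rise of the list at 2.34 ± 0.23. COL1A1, the main fibrillar collagen of connective tissue, was tested and not called, and COL1A2 and COL3A1 were below the filter.

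Among laminins, the cross-shaped proteins of the basement membrane, 6 of 7 rose and 0 fell (median 0.49). The rises of LAMB3 and LAMA5 were both lost without control library 2 or eIF3e siRNA library 3. That of LAMB3 was also lost without eIF3e siRNA library 1. LAMA3, the alpha chain of laminin 332, was at 5455, 5193 and 5623 CPM in control and at 9144, 9540 and 9107 CPM after eIF3e siRNA (0.77 ± 0.11, edgeR adjusted p = 2.4e-06). The groups did not overlap. LAMB1 (0.58 ± 0.11) and LAMC1 (0.61 ± 0.11), chains found in other trimers, rose as well. As a list the laminins took 2.12 to 2.26% of footprints in control and 3.05 to 3.10% after eIF3e siRNA.

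Of 20 matrix glycoproteins 10 rose and 1 fell (median 0.62). With THBS1 among them the list went from 2.43 to 2.67% up to 4.61 to 4.74% of footprints. Most of that gain in share came from THBS1. FN1, fibronectin, the ligand of several integrins (chromosome 2, 215360865 to 215436068, GRCh38.p14), was at 309, 296 and 417 CPM in control and at 1111, 1158 and 1175 CPM after eIF3e siRNA. It rose by 1.75 ± 0.13 (edgeR adjusted p = 2.4e-11), beside 1.33 ± 0.11 in total RNA. TNC, tenascin C, rose by 1.94 ± 0.16 and CYR61 (current symbol CCN1), a matricellular protein, by 1.71 ± 0.13. SPARC, TGFBI and NID1 were among the 9 members not called, so the rise did not pass the test in every matrix gene.

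The receptors rose in part. Of 12 integrins 6 rose and 2 fell, and 0 of the 2 decreases held without control library 1, control library 2, eIF3e siRNA library 2 or eIF3e siRNA library 3. ITGA5, the fibronectin receptor's alpha chain, was at 601, 507 and 470 CPM in control and at 1504, 1527 and 1517 CPM after eIF3e siRNA (1.53 ± 0.12, edgeR adjusted p = 6.2e-11). ITGA3, an alpha chain that binds laminin, rose by 1.07 ± 0.11 and ITGB1, their shared beta chain, by 0.63 ± 0.11. ITGA2, ITGAV, ITGB5 and ITGB6 were not called.

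Genes of proteolysis and its inhibitors moved in both directions. Of 22 plasminogen activators, serpins and other inhibitors 5 rose and 8 fell, and without control library 2 the risers were 3. TIMP3, a metalloproteinase inhibitor held in the matrix, was at 977, 871 and 823 CPM in control and rose to 2195, 2103 and 1956 CPM (1.23 ± 0.11). SERPINE2, a serpin that inhibits thrombin, rose by 2.36 ± 0.21. The inhibitors that fell are of the clade B serpins and of the secretions of epithelia. SERPINB5, maspin, was at 2896, 2326 and 1867 CPM in control and at 1134, 1081 and 1042 CPM after eIF3e siRNA (−1.12 ± 0.13, edgeR adjusted p = 1.2e-07). SLPI, an inhibitor of leukocyte elastase, was at 5699, 4868 and 3785 CPM and fell to 2334, 2464 and 2737 CPM (−0.93 ± 0.13). SERPINB1 fell by 1.14 ± 0.14 and SERPINB2 by 0.66 ± 0.12.

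In the TGF-beta family 6 of 21 genes rose and 1 fell, and without control library 2 the risers were 3. INHBA, the subunit of the ligand activin A (chromosome 7, 41685114 to 41705406, GRCh38.p14), was at 13, 14.1 and 26.1 CPM in control and at 112, 63.3 and 116 CPM after eIF3e siRNA. It rose by 2.47 ± 0.27 (edgeR adjusted p = 5.5e-08), with 1 eIF3e siRNA library well below the other 2. TGFBR2, the type II receptor, rose by 1.12 ± 0.13 and FSTL3, which binds activin, by 1.06 ± 0.14. TGFB1, TGFB2, SMAD2, SMAD3 and SMAD4 were not called. ID1, a target of BMP signalling that blocks basic helix-loop-helix factors, was at 442, 425 and 388 CPM in control and at 176, 238 and 213 CPM after eIF3e siRNA (−1.0 ± 0.13, edgeR adjusted p = 1.1e-06).

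**Figure D3:**
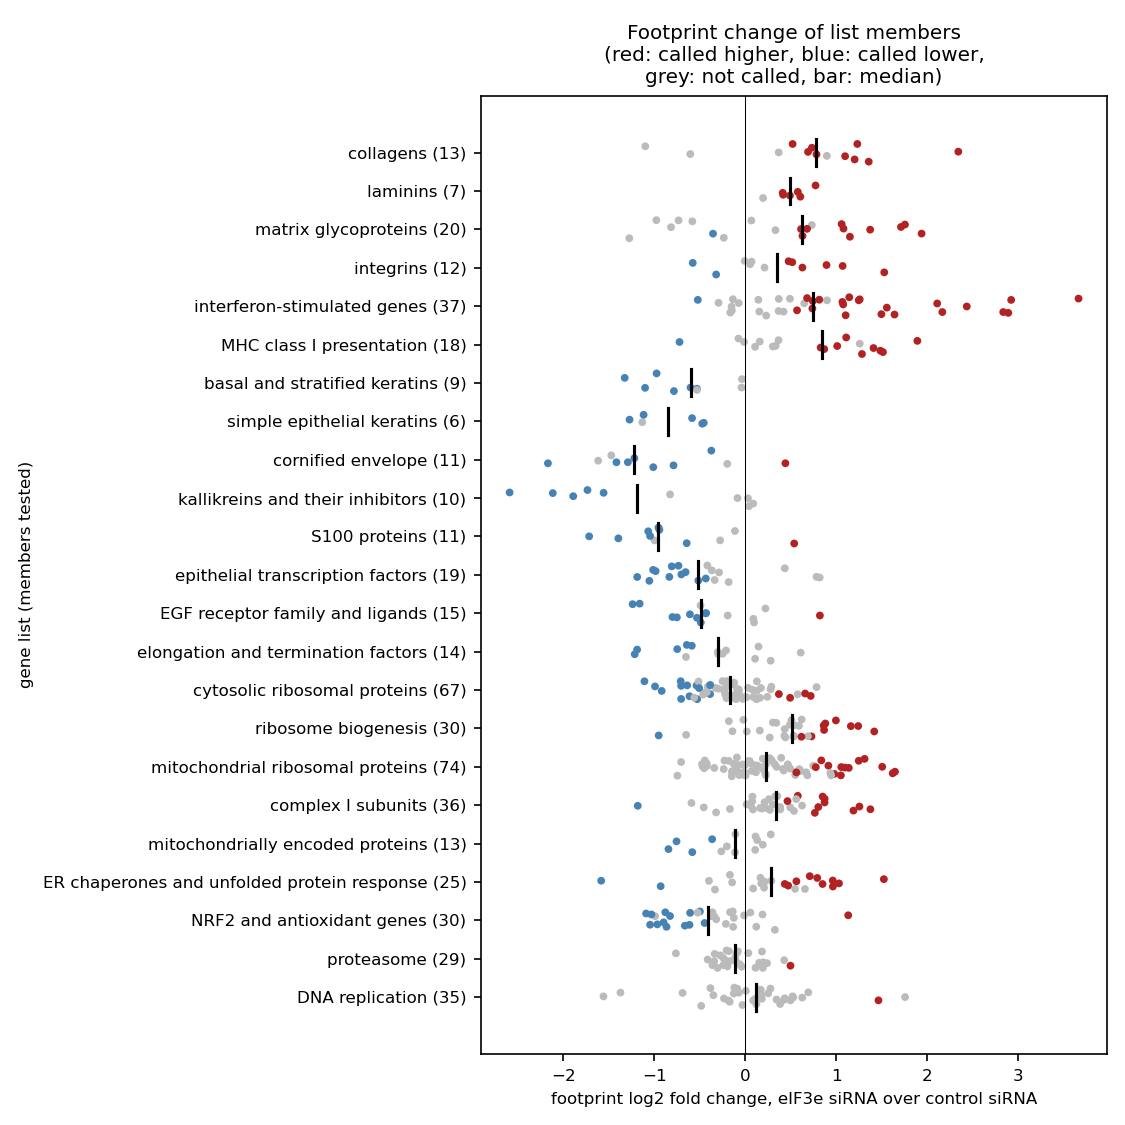
Footprint log2 fold change of the tested members of 23 gene lists (number tested in parentheses), one point per gene, with red called higher, blue called lower, grey not called and a bar at the list median; heights within a row are random. Collagens (9 of 13 called higher) and cornified envelope genes (7 of 11 called lower) lie on opposite sides of 0, and the proteasome (1 of 29 called) lies around it.

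Interferons bind receptors that act through transcription factors on a short promoter element, the ISRE, and the genes it controls restrict viruses. Of 37 interferon-stimulated genes tested, not all of which hold the element, 21 rose and 1 fell (median 0.74). The list went from 0.637 to 0.679% up to 1.48 to 1.67% of footprints. IFI6, a small membrane protein (chromosome 1, 27666064 to 27672192, GRCh38.p14), was at 1591, 1305 and 1179 CPM in control and at 6399, 6021 and 5847 CPM after eIF3e siRNA (2.16 ± 0.12, edgeR adjusted p = 6e-14). BST2, tetherin, which holds budding virions at the cell surface, was at 170, 124 and 123 CPM and rose to 772, 726 and 760 CPM (2.43 ± 0.14). ISG15, a ubiquitin-like modifier, was at 36.3, 43.2 and 43.8 CPM and rose to 254, 360 and 263 CPM (2.83 ± 0.17). In all of them the lowest eIF3e siRNA library lay far above the highest control library.

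The promoters of 3 genes that rose and of 1 that did not are printed to show the element that they have in common. Each sequence runs 5′ to 3′ on the gene's strand from 250 bases before to 50 bases after the start of the gene (RefSeq, GRCh38.p14), and capitals mark the ISRE letters, which are GAAA, any 2 bases and GAAA again, on either strand; on the other strand the blocks read TTTC.
ISG15, chr1:1013247-1013546, plus strand: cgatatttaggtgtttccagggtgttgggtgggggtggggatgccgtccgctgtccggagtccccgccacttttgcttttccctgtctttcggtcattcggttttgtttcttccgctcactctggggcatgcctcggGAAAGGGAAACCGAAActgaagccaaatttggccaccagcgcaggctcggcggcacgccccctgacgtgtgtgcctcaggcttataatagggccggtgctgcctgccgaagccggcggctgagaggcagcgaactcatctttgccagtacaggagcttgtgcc
IFI6, chr1:27672143-27672442, minus strand: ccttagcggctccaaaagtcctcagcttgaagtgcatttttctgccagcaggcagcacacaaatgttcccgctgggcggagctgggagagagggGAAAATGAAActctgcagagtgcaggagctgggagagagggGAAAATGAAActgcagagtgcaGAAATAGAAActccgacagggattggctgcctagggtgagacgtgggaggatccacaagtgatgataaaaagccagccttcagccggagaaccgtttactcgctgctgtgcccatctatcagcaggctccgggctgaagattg
BST2, chr19:17405581-17405880, minus strand: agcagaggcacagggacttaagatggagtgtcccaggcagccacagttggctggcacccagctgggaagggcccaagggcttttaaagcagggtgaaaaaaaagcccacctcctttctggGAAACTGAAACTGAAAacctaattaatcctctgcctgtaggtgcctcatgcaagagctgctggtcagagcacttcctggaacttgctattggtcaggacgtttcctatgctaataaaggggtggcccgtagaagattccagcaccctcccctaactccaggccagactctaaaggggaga
IFIT1, chr10:89392373-89392672, plus strand: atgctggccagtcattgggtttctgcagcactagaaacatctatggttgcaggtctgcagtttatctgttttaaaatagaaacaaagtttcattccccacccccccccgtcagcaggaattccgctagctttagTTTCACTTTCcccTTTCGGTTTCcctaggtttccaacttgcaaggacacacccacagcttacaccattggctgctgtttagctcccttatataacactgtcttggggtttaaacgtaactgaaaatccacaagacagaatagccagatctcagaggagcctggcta
In ISG15 and BST2 a pair of overlapping matches runs together into 1 stretch, IFI6 holds 3 separate matches, and IFIT1 holds 2 on the other strand.

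Most of the interferon list held the element, whether called or not. Of the 31 members with a promoter sequence, 21 held the letters (67.7%), against 3.57% of all 35116 promoters and 2.94% of the 7630 tested genes that matched. Among the members called higher 10 of 17 held them, and among those not called 10 of 13. The risers without them include PNPT1 (2.92) and RSAD2 (2.89), and the risers printed above were taken from those that hold them. A match is a description of the letters and not a site known to be bound. IFIT1, which encodes a sensor of foreign RNA caps, was at 168, 157 and 117 CPM in control and at 121, 149 and 129 CPM after eIF3e siRNA, with overlapping groups (−0.15 ± 0.16, edgeR adjusted p = 0.58). Its total RNA rose by 0.90 ± 0.14. The IFIT genes, IFI44 and IFIH1 were likewise not called in footprints. Of 21 genes of interferon signalling 2 rose and 0 fell.

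MHC class I molecules show peptides on the cell surface, with B2M as their light chain and TAP1 and TAP2 as the peptide pump. Of 18 genes 9 rose and 1 fell (median 0.85), and the list went from 0.930 to 1.04% up to 1.70 to 1.79% of footprints. B2M was at 5338, 4444 and 4361 CPM in control and at 8514, 8952 and 8347 CPM after eIF3e siRNA (0.87 ± 0.11, edgeR adjusted p = 8.2e-07). The heavy chain HLA-B was at 124, 108 and 101 CPM and rose to 484, 388 and 364 CPM (1.89 ± 0.14). HLA-C (1.48 ± 0.12) and HLA-F (1.28 ± 0.14) rose too, but the HLA heavy chains share long stretches of sequence and short footprints may be divided among them in a way the files do not show. Of 15 class I genes with a promoter sequence, 9 held the ISRE letters.

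Genes of complement were not taken as a list, and 2 are named for their level or their p. C3, the central component, was at 7273, 6685 and 5935 CPM in control and at 13191, 12447 and 12208 CPM after eIF3e siRNA (0.93 ± 0.11, edgeR adjusted p = 2.2e-07), beside 0.50 ± 0.10 in total RNA. C1R, a protease that starts the classical pathway, was at 181, 165 and 170 CPM and rose to 570, 614 and 602 CPM (1.79 ± 0.12). LGALS3BP, a secreted glycoprotein counted in the interferon list, was at 872, 783 and 688 CPM and rose to 2607, 2483 and 2212 CPM (1.64 ± 0.12).

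Keratins form the intermediate filaments of epithelial cells, and the cornified envelope is the crosslinked shell that their outermost cells build. Of 9 basal and stratified keratins 6 fell and 0 rose (median −0.60), and the list went from 1.07 to 1.28% down to 0.682 to 0.729% of footprints. KRT14, a keratin of basal cells, was at 1826, 1732 and 1740 CPM in control and at 865, 1000 and 835 CPM after eIF3e siRNA (−0.97 ± 0.11, edgeR adjusted p = 1.5e-07). Its partner KRT5 was at 3062, 3217 and 3803 CPM and fell to 2236, 2385 and 2362 CPM (−0.53 ± 0.11). KRT16, a keratin of stressed epidermis, had −1.32 ± 0.15 and KRT15 had −1.10 ± 0.13. Of 6 simple epithelial keratins 5 fell and 0 rose (median −0.85), with KRT23 at −1.27 ± 0.24 and KRT7 at −0.47 ± 0.11. KRT14, KRT16 and KRT17, and the copies of KRT6, are near in sequence, so the division of reads among them is uncertain.

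Of 11 cornified envelope genes 7 fell and 1 rose, with the median at −1.22. SCEL, sciellin, a precursor of the envelope, was at 240, 253 and 300 CPM in control and at 68.6, 60.8 and 47.3 CPM after eIF3e siRNA (−2.17 ± 0.16, edgeR adjusted p = 2.4e-11). SPRR1B, a small proline-rich envelope protein, fell by 1.41 ± 0.21 and CSTA, the cysteine protease inhibitor cystatin A, by 1.22 ± 0.15. The kallikreins KLK5, KLK6, KLK7, KLK8 and KLK10, proteases that cut the contacts between cells of the outer epidermis, all fell, and they lie in 1 stretch of chromosome 19 (50943303 to 51020097, GRCh38.p14). KLK7 was at 350, 308 and 312 CPM in control and at 67.6, 83.7 and 73.4 CPM after eIF3e siRNA (−2.11 ± 0.14). KLK10 was at 572, 431 and 487 CPM and fell to 149, 151 and 149 CPM (−1.73 ± 0.13). The 4 protease and inhibitor genes of the same list outside this cluster (SPINT1, SPINT2, ST14, PRSS8) and KLK14 were not called.

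Of 11 S100 proteins tested, small calcium binders of epithelia, 7 fell, 1 rose and 3 were not called (median −0.95). S100A14 was at 841, 828 and 607 CPM in control and at 287, 268 and 312 CPM after eIF3e siRNA (−1.39 ± 0.13, edgeR adjusted p = 3.2e-09). S100A10, the partner of annexin A2, fell by 1.04 ± 0.12 and S100A9, a subunit of calprotectin, by 1.07 ± 0.14. The riser was S100A2, at 1291, 1457 and 1381 CPM in control and 1886, 2004 and 2104 CPM after eIF3e siRNA (0.54 ± 0.11, edgeR adjusted p = 0.00060).

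Junctions and the transcription factors of epithelia fell in part. Of 15 tight junction genes 6 fell and 2 rose (median −0.39), and 0 of the 2 rises held in the absence of control library 2 or eIF3e siRNA library 3. OCLN, occludin, was at 1420, 1165 and 887 CPM in control and at 630, 557 and 689 CPM after eIF3e siRNA (−0.89 ± 0.14, edgeR adjusted p = 1.2e-05). PARD6B, a polarity protein, fell by 1.61 ± 0.24. Of 9 desmosomal genes 4 fell and 1 rose, and 2 fell in the absence of control library 2 or eIF3e siRNA library 2. Of 19 epithelial transcription factors and splicing factors 11 fell and 0 rose (median −0.51), and 7 fell without eIF3e siRNA library 3. ELF3, an ETS factor of epithelia, was at 1029, 876 and 721 CPM in control and at 436, 420 and 472 CPM after eIF3e siRNA (−0.98 ± 0.13, edgeR adjusted p = 8.3e-07). GRHL3, a grainyhead factor, fell by 0.83 ± 0.18. TP63, the master factor of basal cells, KLF5 and OVOL1 were not called.

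**Figure D4:**
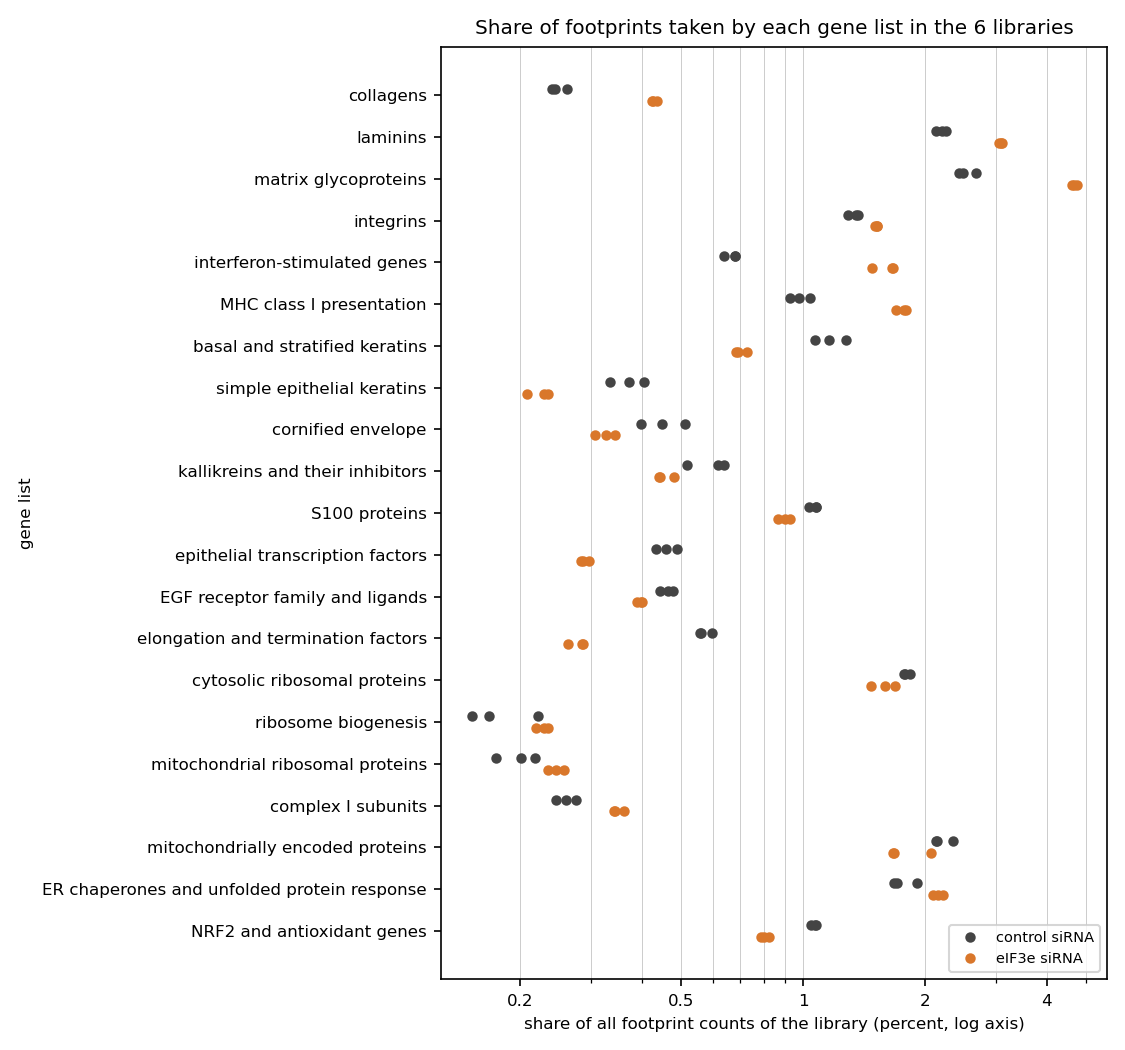
Share of all footprint counts of a library (percent, log axis) taken by each of 21 gene lists, with the 3 control siRNA libraries in grey and the 3 eIF3e siRNA libraries in orange. Matrix glycoproteins moved from 2.43 to 2.67% up to 4.61 to 4.74%, a gain that came mostly from THBS1. The ribosome biogenesis libraries overlap, but in most of these lists the groups lie apart. Elongation and termination factors moved from 0.558 to 0.595% down to 0.262 to 0.287%. EEF2 held the larger part of that share, and 9 of the 14 members tested were not called.

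Some calls that ran against the direction of their list were lost when 1 library was left out. Such losses were not particular to them: of all 1707 genes called, 928 (54.4%) were called in all 6 of these fits. The 1 decrease among matrix glycoproteins, FBLN1, was lost without control library 1 or 2 or any eIF3e siRNA library. SAMD9, the 1 decrease among interferon-stimulated genes, was lost without control library 2 or 3 or eIF3e siRNA library 1 or 3, and PSMB10, the 1 among class I genes, without eIF3e siRNA library 3. PPL, the 1 rise among cornified envelope genes, was lost without control library 1 or 2 or eIF3e siRNA library 1 or 2, and the desmosomal PKP2 without control library 2 or eIF3e siRNA library 2. Of the 2 rises in interferon signalling, that of IFNAR1 was lost without control library 1 or 3 or any eIF3e siRNA library, and that of IFNGR1 was kept. S100A2, ID1, EGFR, SOD2, NPM1 and MT2A, which also ran against the larger count of their lists, were called in all 6 of these fits.

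Growth factor signalling through the EGF receptor was described through the receptor, its ligands and its feedback targets. Cells of this line depend on EGF in the medium and also make ligands of their own. EGFR, the receptor, was at 953, 822 and 808 CPM in control and at 1591, 1497 and 1472 CPM after eIF3e siRNA (0.82 ± 0.11, edgeR adjusted p = 2.5e-06). Of the 15 genes of the family and its feedback targets 9 fell and 1 rose, the riser being EGFR. EREG, the ligand epiregulin, was at 337, 300 and 256 CPM and fell to 130, 118 and 132 CPM (−1.24 ± 0.14). HBEGF, another ligand, was at 990, 1027 and 729 CPM and fell to 493, 506 and 633 CPM (−0.75 ± 0.13). DUSP6, a phosphatase induced by ERK signalling, fell by 1.16 ± 0.18. EGR1, an immediate early transcription factor, was at 371, 302 and 165 CPM in control and at 82.0, 63.3 and 102 CPM after eIF3e siRNA (−1.76 ± 0.20, edgeR adjusted p = 1.2e-07). PIM1, a kinase of cytokine signalling, fell by 1.77 ± 0.18.

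IL18, a cytokine of the interleukin 1 family, was at 370, 274 and 203 CPM in control and at 87.7, 126 and 83.0 CPM after eIF3e siRNA (−1.52 ± 0.18, edgeR adjusted p = 1.8e-07). IL1B was at 345, 383 and 405 CPM and fell to 191, 236 and 150 CPM (−0.98 ± 0.14). IL1RN, the antagonist of the receptor, fell by 1.99 ± 0.32, while the receptor chain IL1RAP rose by 0.72 ± 0.16. Of the 20 genes of this family and of NF-kB targets tested 7 fell and 3 rose. In the absence of control library 2 or eIF3e siRNA library 2 the fallers were 5. The rise of RELB was lost without control library 1 or 3 or eIF3e siRNA library 1 or 3. That of CXCL1 was lost without control library 2 or eIF3e siRNA library 1, and that of IL1RAP was kept. NFKB1, NFKB2 and ICAM1 were not called.

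The translation machinery itself changed unevenly, and most members of its lists were not called. Across all genes tested 10.0% rose and 8.46% fell, and in the class of highest level 43.0% were called. These lists were not compared with genes of like level. Ribosomal proteins, elongation factors and some initiation factors are made from mRNAs that share a 5′ terminal pyrimidine tract and are often controlled together. Of 14 elongation and termination factors 5 fell and 0 rose (median −0.30). EEF2, the factor that moves the ribosome along by 1 codon (chromosome 19, 3976056 to 3985463, GRCh38.p14), was at 4413, 4229 and 4053 CPM in control and at 1763, 1830 and 1883 CPM after eIF3e siRNA. It fell by 1.21 ± 0.11 (edgeR adjusted p = 1.1e-09), with both groups narrow, beside −0.99 ± 0.10 in total RNA. EEF1G fell by 0.75 ± 0.15 and EEF1D by 0.59 ± 0.13, both parts of the exchange complex that recharges eEF1A. EEF1A1, which brings tRNA to the ribosome, fell by 0.64 ± 0.15 but was not called in a fit over all 12 libraries. Termination and recycling factors (ETF1, GSPT1, ABCE1, PELO) were not called.

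Of 67 cytosolic ribosomal proteins 13 fell and 4 rose (median −0.17), and 8 fell in the absence of control library 1 or 2 or eIF3e siRNA library 1 or 3. RPL5, which carries 5S RNA into the large subunit, was at 451, 443 and 410 CPM in control and at 166, 252 and 188 CPM after eIF3e siRNA (−1.11 ± 0.14, edgeR adjusted p = 5.4e-07). RPL3, next to the catalytic centre, was at 497, 472 and 443 CPM and fell to 205, 254 and 288 CPM (−0.92 ± 0.13). The risers include RPL37A, at 638, 608 and 607 CPM in control and 801, 880 and 928 CPM after eIF3e siRNA (0.49 ± 0.11, edgeR adjusted p = 0.0020), and RPL35 (0.66 ± 0.14). The family thus did not move as 1 block: 50 of the 67 were not called. Ribosomal proteins have many processed pseudogenes, so their counts are uncertain.

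Of 31 initiation factors outside eIF3, 6 fell and 1 rose; without control library 1 the fallers were 3, and without control library 2 or eIF3e siRNA library 2 the risers were 0. DDX3X, a helicase that opens structured leaders, was at 566, 539 and 665 CPM in control and at 258, 320 and 297 CPM after eIF3e siRNA (−1.02 ± 0.13, edgeR adjusted p = 4.6e-07). EIF1, which keeps the scanning ribosome faithful to the start codon, was at 786, 720 and 553 CPM and fell to 402, 366 and 395 CPM (−0.82 ± 0.13). The subunits of eIF2 and eIF2B other than EIF2S3, and the eIF4G proteins, were not called. Of 30 genes of ribosome biogenesis 9 rose and 1 fell (median 0.52), with 5 risers without control library 1 and 4 without control library 2. NOLC1, a nucleolar phosphoprotein, was at 81.5, 95.8 and 93.0 CPM and rose to 204, 225 and 209 CPM (1.24 ± 0.15, edgeR adjusted p = 1.8e-07), and RRP12 rose by 1.16 ± 0.17. The faller was NPM1, nucleophosmin, at −0.95 ± 0.19.

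Among mitochondrial proteins made in the cytosol more genes rose than fell, though most were not called, and among those made inside the organelle none rose (0 of 13). The respiratory chain is built from nuclear subunits, imported after translation on cytosolic ribosomes, and from 13 subunits that mitochondrial ribosomes make. Of 36 nuclear subunits of complex I 10 rose and 1 fell (median 0.33), with 6 risers without eIF3e siRNA library 2 and 0 fallers without control library 1. NDUFS8, a core subunit with iron-sulfur clusters, was at 143, 129 and 128 CPM in control and at 261, 328 and 325 CPM after eIF3e siRNA (1.19 ± 0.14, edgeR adjusted p = 1.3e-07). In complexes II to IV 7 of 22 rose and 1 fell, with 4 risers without control library 2 and 0 fallers without control library 1 or 2 or eIF3e siRNA library 1. SDHA, the flavoprotein of complex II, was at 161, 149 and 146 CPM and rose to 404, 391 and 407 CPM (1.40 ± 0.13). Of 15 subunits of ATP synthase 5 rose and 0 fell, with 3 risers in the absence of control library 2 or eIF3e siRNA library 1 or 3. ATP5B, the catalytic beta subunit, was at 834, 849 and 902 CPM and rose to 1572, 1666 and 1605 CPM (0.90 ± 0.11).

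Of 28 import genes 8 rose and 0 fell, with 5 risers without eIF3e siRNA library 3. HSPA9, the chaperone that pulls proteins in, was at 428, 341 and 390 CPM in control and at 661, 763 and 743 CPM after eIF3e siRNA (0.90 ± 0.12, edgeR adjusted p = 1.8e-06). PMPCA, part of the protease that removes targeting signals, rose by 1.03 ± 0.13. In the tricarboxylic acid cycle 6 of 21 genes rose, among them FH, fumarase (0.87 ± 0.14). IDH1, the cytosolic isocitrate dehydrogenase, was at 161, 176 and 209 CPM in control and at 85.8, 93.2 and 77.6 CPM after eIF3e siRNA (−1.09 ± 0.16). It is 1 of 3 members that fell, of which 1 did without eIF3e siRNA library 1 or 3. The SLC25 carriers of the inner membrane had another balance, with 1 of 17 higher, 2 lower and a median of −0.15. The fallers were the ADP/ATP carriers SLC25A5 (−0.68 ± 0.13) and SLC25A6 (−1.13 ± 0.14), which are close in sequence, so the division of reads between them is uncertain. Of 74 mitochondrial ribosomal proteins 14 rose and 0 fell, with 9 risers without eIF3e siRNA library 2.

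Of the 13 proteins encoded in mitochondrial DNA 4 fell and 0 rose (median −0.11). MT-ND4 was at 3120, 3122 and 2613 CPM in control and at 1683, 1956 and 1612 CPM after eIF3e siRNA (−0.75 ± 0.12, edgeR adjusted p = 1.2e-05). MT-ND6, the 1 subunit read from the other strand of the genome, was at 820, 528 and 602 CPM and fell to 326, 382 and 380 CPM (−0.84 ± 0.14). MT-CO3 fell by 0.58 ± 0.12, and MT-ND5 was at −0.26 ± 0.12 (edgeR adjusted p = 0.12). Reads from these genes come from mitochondrial ribosomes, whose recovery on the columns used here was not measured, and MT-ND6 overlaps genes of the other strand, so its count is uncertain without the strand setting. Leaving all 13 out changed the count of genes called to 929 higher and 780 lower.

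In the endoplasmic reticulum, where secreted and membrane proteins fold, 10 of 25 chaperone and stress genes rose and 2 fell (median 0.29). PDIA3, a disulfide isomerase that also loads MHC class I, was at 549, 489 and 505 CPM in control and at 1002, 1007 and 999 CPM after eIF3e siRNA (0.96 ± 0.11, edgeR adjusted p = 1.8e-07). HSP90B1, the HSP90 of this compartment, was at 2052, 1566 and 1486 CPM and rose to 3121, 2801 and 2910 CPM (0.79 ± 0.12). PDIA4 (0.85 ± 0.12) and MANF (0.96 ± 0.13) rose as well. The fallers were HERPUD1, which helps to remove misfolded proteins, at 524, 461 and 313 CPM in control and 138, 112 and 182 CPM after eIF3e siRNA (−1.58 ± 0.17), and DNAJB9 (−0.93 ± 0.15). HSPA5 and XBP1 were not called. QSOX2, an oxidase that makes disulfides in the secretory pathway, was at 75.8, 63.1 and 68.9 CPM and rose to 243, 257 and 259 CPM (1.87 ± 0.15).

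Of 33 lysosomal genes 8 rose and 3 fell, and 0 of the 3 decreases held without eIF3e siRNA library 1 and 1 without library 2. CTSC, cathepsin C, was at 1065, 931 and 869 CPM in control and at 2101, 2194 and 2013 CPM after eIF3e siRNA (1.14 ± 0.11, edgeR adjusted p = 1.1e-08), and GLA, alpha-galactosidase, rose by 1.29 ± 0.16. Of 18 heat shock proteins 5 fell and 0 rose, with 2 fallers without eIF3e siRNA library 1 and 3 without library 3 or without control library 2. HSPB1, the small heat shock protein HSP27, was at 1238, 997 and 894 CPM and fell to 453, 560 and 515 CPM (−1.04 ± 0.13, edgeR adjusted p = 3.8e-07). Of 29 proteasome subunits 1 rose and 0 fell, and the 1 was not called without control library 1 or 3 or eIF3e siRNA library 2 or 3.

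NRF2 is the transcription factor that induces many antioxidant genes, together with enzymes that make NADPH. Of 30 NRF2 and antioxidant genes tested 13 fell, 1 rose and 16 were not called (median −0.41). The letters of its promoter element, the ARE (TGACNNNGC, N being any base), were in 5 of 22 list promoters (22.7%). Of the 7630 tested genes that matched 15.8% held them. Among the fallers 2 of 9 did, and among members not called 3 of 12. TKT, transketolase, was at 5342, 4691 and 4030 CPM in control and at 3044, 2810 and 3349 CPM after eIF3e siRNA (−0.61 ± 0.12, edgeR adjusted p = 0.00026). NQO1, a quinone reductase, was at 225, 203 and 206 CPM and fell to 108, 137 and 101 CPM (−0.88 ± 0.15). PGD, an NADPH-forming enzyme, fell by 0.97 ± 0.15 and the peroxidase PRDX5 by 0.86 ± 0.13. GCLM, GSR and TXN were not called. The riser was SOD2, the mitochondrial superoxide dismutase, at 274, 291 and 287 CPM in control and 623, 671 and 572 CPM after eIF3e siRNA (1.13 ± 0.12).

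Glycolysis gave a mixed picture, with 5 of 18 genes lower and 3 higher, and 1 higher without any 1 of the eIF3e siRNA libraries. PKM, pyruvate kinase, was at 2217, 2006 and 2112 CPM in control and at 1071, 1186 and 1186 CPM after eIF3e siRNA (−0.88 ± 0.11, edgeR adjusted p = 5.4e-07), and LDHB fell by 0.78 ± 0.12. SLC16A3, the lactate exporter, was at 991, 866 and 704 CPM and rose to 1794, 1714 and 1807 CPM (1.05 ± 0.12). Among zinc transporters and metallothioneins 7 of 17 rose and 1 fell. SLC39A8, a zinc and manganese importer (chromosome 4, 102251041 to 102345482, GRCh38.p14), was at 27.7, 38.2 and 29.5 CPM in control and at 208, 239 and 168 CPM after eIF3e siRNA (2.69 ± 0.19, edgeR adjusted p = 5.8e-12). SLC39A10 rose by 1.19 ± 0.23 and SLC39A14 by 0.94 ± 0.14. MT2A, a zinc-binding metallothionein, was at 110, 83.1 and 95.4 CPM and fell to 40.2, 46.6 and 48.5 CPM (−1.10 ± 0.19). Metallothionein genes are near copies of each other, so MT2A is uncertain.

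Genes of proliferation were mostly not called, as were most genes tested (18.5% called in all). In total RNA 11 of 34 genes of DNA replication rose and 2 fell, beside 18.8% and 18.7% of all genes tested there. In footprints 1 of 35 genes of DNA replication rose and 0 fell, and the 1, ORC6, was called in 1 of the 6 fits that leave out 1 library. Of 29 genes of mitosis 2 rose and 3 fell, with 1 riser in the absence of control library 2 or eIF3e siRNA library 2. MKI67, a coat protein of mitotic chromosomes, was at 141, 152 and 205 CPM in control and at 371, 304 and 365 CPM after eIF3e siRNA (1.07 ± 0.14, edgeR adjusted p = 1.6e-06). MDM2, the ubiquitin ligase that limits p53 (chromosome 12, 68808172 to 68850686, GRCh38.p14), was at 845, 803 and 815 CPM and fell to 398, 308 and 320 CPM (−1.26 ± 0.12). CDKN1A, the cell cycle inhibitor p21, was at 432, 355 and 299 CPM and fell to 145, 210 and 193 CPM (−0.99 ± 0.15). Both are targets of p53, and of the 21 targets tested 3 fell and 2 rose, with FAS, GDF15 and TNFRSF10B not called, 4 risers without control library 1 and 1 without control library 2. Of 26 actin cytoskeleton genes 9 fell and 2 rose, with 5 fallers in the absence of control library 2 or eIF3e siRNA library 1. MYL6, the essential light chain of myosin, was at 363, 283 and 286 CPM in control and at 118, 145 and 168 CPM after eIF3e siRNA (−1.11 ± 0.15).

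The 10 genes that follow the 10 largest rises and falls belong to no single list. Among those that rose were ALDH1B1, a mitochondrial aldehyde dehydrogenase, at 33.4, 29.5 and 51.6 CPM in control and 146, 138 and 158 CPM after eIF3e siRNA (1.95 ± 0.20, edgeR adjusted p = 1.1e-08). THSD1, an adhesion protein with a thrombospondin repeat, rose by 2.01 ± 0.24 and CDH4, R-cadherin, by 1.94 ± 0.32. IL15RA, the receptor that presents interleukin 15, rose by 1.98 ± 0.35. Among those that fell was MACC1, a regulator of MET expression, at 90.04, 79.9 and 60.0 CPM in control and 21.7, 19.7 and 21.7 CPM after eIF3e siRNA (−1.87 ± 0.23, edgeR adjusted p = 5.4e-07). CCNL1, a cyclin of splicing, fell by 1.67 ± 0.20 and ATP6V1B1, a proton pump subunit, by 1.85 ± 0.27. By adjusted p, LTA4H, which makes leukotriene B4, was also among the clearest falls. It was at 476, 446 and 531 CPM in control and at 152, 156 and 194 CPM after eIF3e siRNA (−1.53 ± 0.13).

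Total RNA moved with footprints for most of these genes. In total RNA 18.8% of the 11719 genes tested rose and 18.7% fell. Of the 921 genes with higher footprints that were tested there, 713 (77.4%) rose in total RNA too, against 20.4% of all genes tested in both assays, and 4 fell. Of 776 genes with lower footprints 604 (77.8%) fell, against 21.3%, and 1 rose. Genes called in footprints were more often of high level, and these percentages were not compared among genes of like level. Both assays used cells given the same siRNAs but separate libraries. More genes were called in total RNA in general, with 18.8% higher there and 10.0% in footprints, so a larger count there is not particular to a list. In the interferon list 30 of 37 genes rose in total RNA (list median 0.95) and 21 in footprints (0.74). In the mitochondrially encoded genes 4 of 13 rose in total RNA (list median 0.21) and 0 in footprints (−0.11). These counts were not tested against each other; the test is the interaction of assay and siRNA for each gene.

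That test called 22 of 9055 genes (0.243%), 7 with footprints higher than the change in total RNA and 15 with footprints lower, and 1079 had an unadjusted p under 0.05. The result is fragile. Without control total RNA library 2, and likewise without eIF3e siRNA total RNA library 3, edgeR called 0 genes, with 864 and 859 at an unadjusted p under 0.05, and the DESeq2 Wald test on all libraries called 69 and 62. The 22 genes are given as differences of log2 changes, footprints minus total RNA. ID1 had −1.07 ± 0.17 (edgeR adjusted p = 0.015), since its total RNA was at 0.06 ± 0.10 while its footprints fell, and it was called in 10 of the 12 fits that leave out 1 library. MT-ND4 (−1.01 ± 0.17) was also called in 10 of 12, MT-ND6 (−1.26 ± 0.22) in 9 and MT-ND1 (−1.09 ± 0.20) in 8. TMEM123, a membrane receptor also called porimin, had footprints at 313, 303 and 249 CPM in control and 520, 600 and 580 CPM after eIF3e siRNA with total RNA at 0.09 ± 0.09, a difference of 0.88 ± 0.15 called in 10 of 12.

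Others of the 22 were translation factors and structural proteins. PABPC1, the poly(A)-binding protein, had total RNA lower by −1.23 ± 0.12 and footprints at −0.25 ± 0.13, a difference of 0.97 ± 0.17 called in 9 of 12. EIF4B, a cofactor of the eIF4A helicase, had total RNA at −1.75 ± 0.16 and footprints at −0.07 ± 0.30, a difference of 1.67 ± 0.34 called in 5 of 12. HIST1H1E, a linker histone, showed opposite calls, with total RNA at 0.80 ± 0.11 and footprints at −0.66 ± 0.18, and its footprint call did not hold in the absence of control library 3 or of eIF3e siRNA library 2. MT2A (−1.20 ± 0.21, 8 of 12), GLI3 (−1.61 ± 0.31, 7 of 12), RNF4 (−2.34 ± 0.45, 6 of 12), SFN (−0.82 ± 0.15, 5 of 12), TMSB10 (−1.03 ± 0.20, 4 of 12) and MSL1 (−2.11 ± 0.43, 4 of 12) had footprints lower than total RNA. So did ARHGDIA (−1.0 ± 0.21, 3 of 12), MYL6 (−1.08 ± 0.22, 2 of 12), KRT81 (−0.69 ± 0.15, 2 of 12) and IFIT1 (−1.06 ± 0.22, 1 of 12). MAL2 (0.89 ± 0.17, 6 of 12), REEP3 (0.87 ± 0.17, 5 of 12), RPLP1 (1.01 ± 0.21, 4 of 12) and TMEM30B (1.13 ± 0.23, 3 of 12) had footprints higher.

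**Figure D5:**
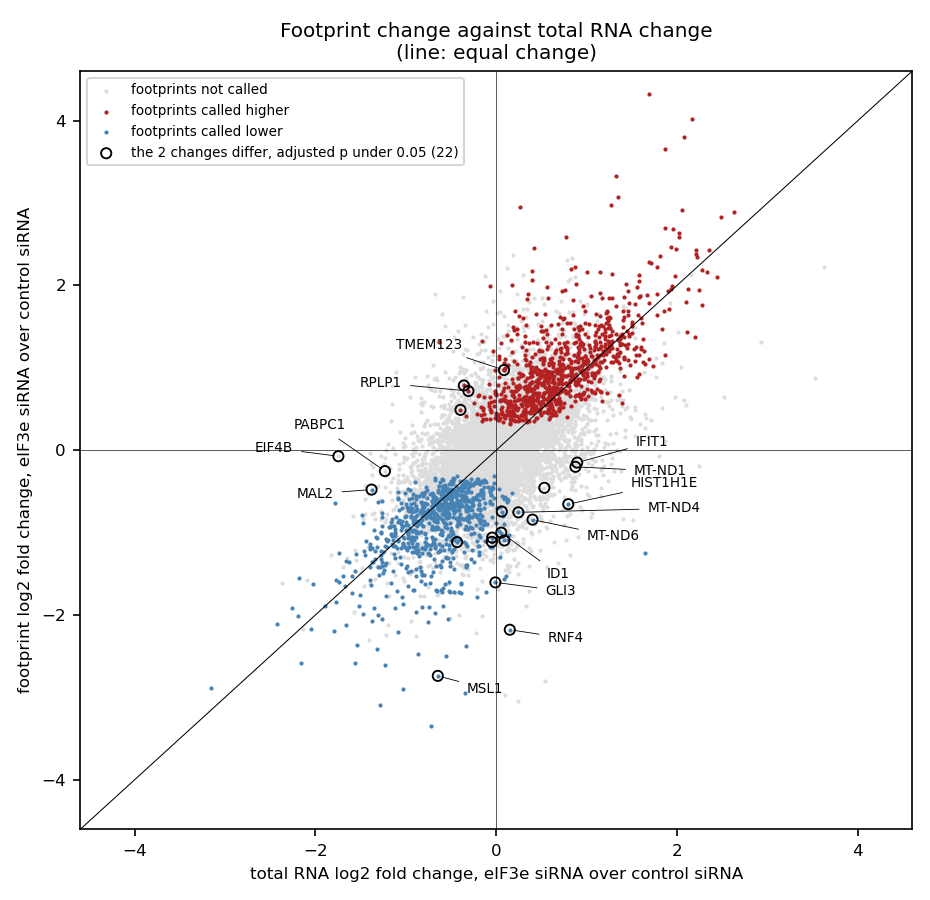
Footprint log2 fold change against total RNA log2 fold change, eIF3e siRNA over control siRNA, for the 9055 genes tested in both; red and blue mark genes whose footprints were called higher and lower, circles the 22 genes whose changes differ and the line equal change. Most called genes have the same sign in both assays, and the circled mitochondrial genes MT-ND4, MT-ND6 and MT-ND1 lie below it.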

How the data were processed

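Ribosome footprints and total RNA of MCF-10A cells were sequenced after control or eIF3e siRNA (3 libraries each). The authors deposited whole-number read counts, 1 row per gene symbol. Cutadapt 1.18, Bowtie 1.1.2, STAR 2.5, HTSeq and the build hg38 are named in the submitters' processing notes. Annotation, strand setting and the treatment of reads matching several genes are not given in those sources. All value columns were mapped to samples (0 unmapped). Depth was 1889543 to 3447360 counts per footprint library and 4263767 to 5646270 per total RNA library, and replicate variation (biological coefficient of variation) was 0.245 and 0.155.

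The test was edgeR's robust quasi-likelihood test (edgeR 4.0.16 under R 4.3.3, two-sided) after TMM scaling and filterByExpr at 10 counts. P-values were adjusted by Benjamini-Hochberg across every tested gene, with 0.05 as the threshold. Each assay was fitted apart, and the interaction of assay and siRNA in 1 fit over 12 libraries. Lists are described by counts of calls and medians. No 2 libraries of a group agreed within sampling noise (chi-square per degree of freedom 4.40 to 25.3). Tests were checked on simulated data with 200 changed genes among 8813; 4.21% of footprint calls there were false.

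RefSeq lists 8811 of the tested symbols as current and 380 as older names, and 37 had no match. Named genes were, in each direction, the clearest (15), those with the highest level (12) and those ranked 1 to 20 by change. These had a mean count of at least 50 and groups that do not overlap. Also named, without these conditions, were up to 4 called members per list and direction, and 8 of the interaction per direction. Other members are named to complete a list. MSL1, MAL2, IFIT1, PABPC1, EIF4B, ARHGDIA and MT-ND1 were named after their values were seen, to complete the 22. Some genes are not reported here. The members and lists were chosen with earlier results of these data known. Alternatives were DESeq2 1.42.0 (size factors or Wald test), total-count scaling, no filter or a minimum count of 50, a replicate block, 1 fit over 12 libraries, no mitochondrially encoded genes, and leaving out each library.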

Additional observations from a re-analysis of the deposited data

How the results depend on the processing

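For footprints, the counts of genes higher and lower were 926 and 781, and under the other settings (DESeq2 size factors or Wald test, total-count scaling, no filter, a filter at 50 counts, no mitochondrially encoded genes) they were within 1.5 times of these. In 1 fit over all 12 libraries 1272 genes were lower. Leaving out 1 library gave 668 to 879 higher and 546 to 821 lower. Of the 1707 genes called, 928 (54.4%) were called in all 6 of these fits and 0 changed sign; the lowest share kept was 69.0%, without control library 2. Under total-count scaling 48.3% of calls were higher instead of 54.2%, and no list median changed sign under either scaling.

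The replicate numbers showed no pairing of the footprint libraries. Same-numbered deviations correlated there at −0.0012, 0.026 and 0.0043, and differently numbered ones at −0.0186 to 0.014. In total RNA the same-numbered ones correlated at −0.0145, 0.1918 and 0.2973, and the others at −0.3185 to 0.1856. The total RNA libraries may therefore be paired in part, and the main fits used no pairing. With the replicate block 901 footprint genes were higher and 775 lower, and in total RNA 2384 were higher and 2222 lower.

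In total RNA, with 2202 higher and 2197 lower, total-count scaling gave 1217 lower and 70.6% of calls higher instead of 50.1%, shifting the median of all genes by 0.16.

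The interaction, with 7 higher and 15 lower, gave 69 and 62 by the DESeq2 Wald test, 18 and 28 at a minimum count of 50, 21 higher without a filter, 13 and 26 under total-count scaling, 2 and 4 with the replicate block, and 0 to 22 and 0 to 31 without 1 library. The causes were not tested. Protein features were not run, since no protein table was used here. In the class of lowest level 2.95% of genes were called, with a median SE of 0.679, against 43.0% and 0.153 in the class of highest level.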
